A study of Mus musculus with 8 samples.

Results

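The enzymes that build cholesterol and fatty acids, together with a few of their regulators, were followed in the esophagus of mice that overexpress IL-33. The set was a list of 34 genes, chosen with earlier results of these data known. All 34 were found among the 49315 Ensembl gene identifiers of the deposited counts, and 33 of them had enough counts to be tested among 16760 tested genes. Scd3 was the untested member, with 17 counts summed over wild type and 11 summed over EoE33.

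RNA was taken from whole esophagi of male mice aged 8 weeks on the C57BL/6J background. EoE33 mice (n = 4) carry a transgene that overexpresses IL-33 in the esophagus, and wild type littermates (n = 4) were the controls; the promoter of the transgene is not given in the sources used here. Each library is labelled as a separate sample of its group. The p-values therefore weigh the difference between the genotypes against the spread between these samples. The comparison asks which transcripts differ between the genotypes. Libraries held 17.73 to 24.07 times 1e6 counts, and levels are given as CPM, counts per 1e6 counts after TMM scaling. Il33 lay between 99.8 and 165.1 CPM in wild type and between 354.7 and 393.4 CPM in EoE33 (2.88-fold, edgeR adjusted p = 1.52e-05), which goes with the labels; counts per gene do not separate the transgene from the endogenous gene. Krt13, a keratin gene of the esophageal squamous epithelium, was abundant in all libraries, at 24149 to 42621 CPM in wild type and 10434 to 22800 CPM in EoE33. Whole esophagus also holds muscle and fat: the summed level of 13 skeletal muscle markers was 34780 to 37870 CPM in wild type and 8994 to 11990 CPM in EoE33, and that of 9 adipocyte markers 351.5 to 1652 CPM and 163.2 to 408.6 CPM. Wild type replicate 3 carried airway transcripts (summed markers 1901 CPM, against 374.1 to 542.8 in the other wild type libraries). In wild type replicates 1, 2 and 4 most of this sum was Cyp2f2 (506.3, 535.8 and 367.3 CPM). Another airway marker, Bpifa1, was at 635.5 CPM in wild type replicate 3 and at 0.747 to 0.934 CPM in those libraries. Wild type replicate 1 was highest in liver markers (391.8 CPM). In bulk RNA, fewer cells of a type and less RNA per cell cannot be told apart.

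Cholesterol is made from acetyl-CoA by way of mevalonate, isoprenoid units, squalene and a series of sterol intermediates. Fatty acids are made from the same acetyl-CoA by way of malonyl-CoA and are then lengthened by elongases and given double bonds by desaturases. The transcription factors SREBP-1 and SREBP-2, encoded by Srebf1 and Srebf2, are known to switch on the genes of both branches when cells are short of sterols, often together with the CCAAT-binding factor NF-Y. In stratified epithelia, cholesterol and long-chain fatty acids are building blocks of membranes and of the lipid barrier, while fatty acid synthesis is also a main activity of adipocytes.

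Most cholesterol synthesis genes rose by a modest amount in EoE33, the polyunsaturated fatty acid desaturases Fads1 and Fads2 and the stearoyl-CoA desaturase Scd2 rose more, and the acetyl-CoA carboxylase gene Acacb and the elongase gene Elovl6 fell. Markers of other cell states rose as well: cycling cells in 6 of 6 markers (median log2 fold change 2.27), basal keratinocytes in 6 of 7 (1.21) and macrophages in 7 of 8 (0.78), and their part in these results was not tested. By edgeR's quasi-likelihood test (adjusted p under 0.05 over all tested genes), 18 of 33 members were higher in EoE33 (54.5%), where 31.3% of all tested genes were higher. A further 7 members were lower (21.2%), against 32.1% of all tested genes. Together 75.8% of members were called, against 63.4% of all genes. The median log2 fold change of the tested members was 0.43, and that of all tested genes was -0.014. Because the list was chosen with earlier results of these data known, its shares and median are not an independent comparison with all genes. The groups did not overlap in 16 members that were higher (48.5%, against 29.6% of all tested genes). They did not overlap in 5 that were lower (15.2%, against 29.9%). In either direction these were 63.6% of members, near the 59.5% of all tested genes. At a change of at least 2-fold, 4 members were higher (12.1%), near the 12.3% of all tested genes. At the same limit 2 members were lower (6.06%), against 14.9% of all tested genes.

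**Figure D1:**
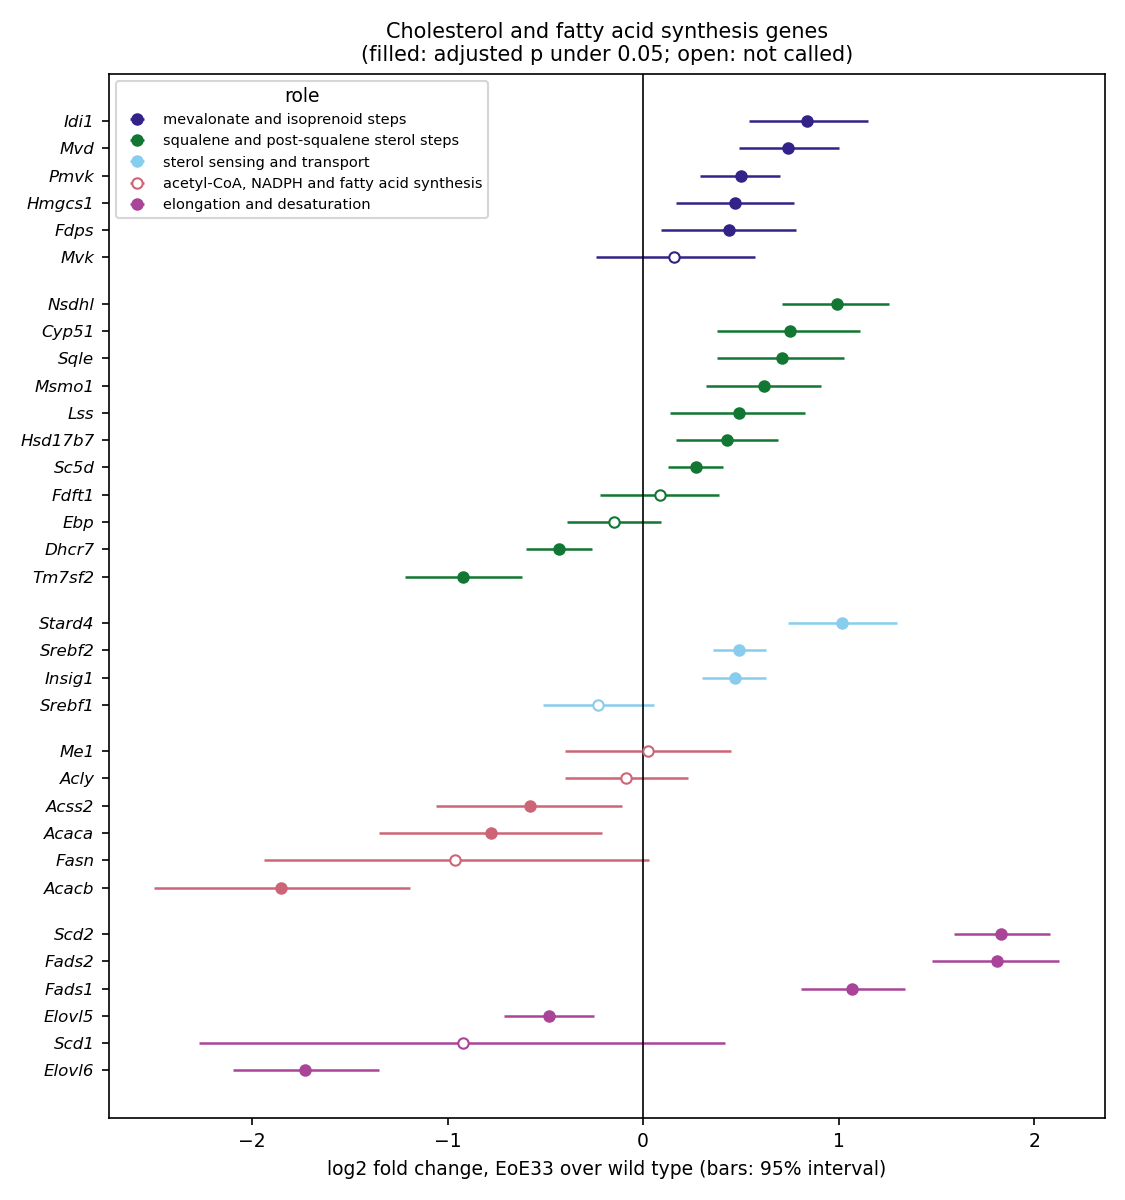
Log2 fold change of each tested member, EoE33 over wild type (x axis), with its 95% interval, ordered within its role; filled points passed an adjusted p of 0.05 in edgeR's quasi-likelihood test and open points did not. The sterol roles lie mostly right of 0, between -0.92 for Tm7sf2 and 1.02 for Stard4, while the acetyl-CoA and fatty acid synthesis role reaches -1.85 for Acacb and elongation and desaturation span -1.73 for Elovl6 to 1.83 for Scd2.

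In the mevalonate and isoprenoid steps, 5 of 6 genes rose and Mvk did not pass the test. Hmgcs1, which encodes the synthase that forms HMG-CoA, was at 227.9, 246.8, 259.8 and 185.1 CPM in the wild type libraries and at 380.1, 265, 320.3 and 304.8 CPM in the EoE33 libraries. The groups did not overlap, with wild type replicate 4 lowest and EoE33 replicate 1 highest (log2 fold change 0.47, standard error (SE) of 0.13, edgeR adjusted p = 0.0127). Idi1, the isomerase that interconverts the isoprenoid building blocks, stood at 35.8, 37.5, 43 and 30.3 CPM in wild type and 75.4, 51.4, 70.3 and 65.9 CPM in EoE33. It had the largest rise of this role, 1.8-fold, again with no overlap between groups (log2 fold change 0.84, SE 0.14, edgeR adjusted p = 0.000565). Mvd, which makes isopentenyl diphosphate, rose from 28.4 ± 4.24 CPM (SD, n = 4) to 47.7 ± 4.11 CPM, 1.68-fold (edgeR adjusted p = 0.000387). Pmvk, the phosphomevalonate kinase gene, lay between 22 and 29.5 CPM in wild type and between 34.5 and 37.1 CPM in EoE33, and rose 1.41-fold (edgeR adjusted p = 0.00114). Fdps, the farnesyl diphosphate synthase gene, rose 1.35-fold with overlapping groups (edgeR adjusted p = 0.0311), and the call was lost without any 1 of wild type replicates 1, 2 and 4 or EoE33 replicates 1, 3 and 4 (adjusted p = 0.0617 to 0.0779). Mvk, the mevalonate kinase gene, had a log2 fold change of 0.16 with a 95% interval from -0.24 to 0.57.

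From squalene onwards, 7 of 11 genes rose, 2 fell and 2 did not pass. Nsdhl, which takes part with Msmo1 and Hsd17b7 in removing methyl groups from the sterol ring, was at 34.2, 31.5, 38 and 26.1 CPM in wild type and at 73.1, 56.1, 61.6 and 66.2 CPM in EoE33. Again no library of one group reached the other, and the rise was 1.98-fold (log2 fold change 0.99, SE 0.12, edgeR adjusted p = 0.000115). Msmo1 and Hsd17b7, of the same demethylation complex, rose 1.53-fold and 1.35-fold. Msmo1 lay between 91.7 and 133.2 CPM in wild type and between 155.4 and 213.6 CPM in EoE33, while for Hsd17b7 the gap was narrow, from a wild type maximum of 50.8 CPM to an EoE33 minimum of 52.3 CPM. Sqle, the squalene epoxidase and a rate-limiting step of the sterol branch, was at 119.9, 121.7, 139 and 93.3 CPM in wild type and at 227.2, 153.3, 198.4 and 194.2 CPM in EoE33. Its groups did not overlap either (1.63-fold, edgeR adjusted p = 0.0022). Cyp51, the lanosterol demethylase, rose 1.68-fold, from 149.4 ± 32.6 to 250.5 ± 31.6 CPM (SD, n = 4). Sc5d, a desaturase of a late step, rose 1.21-fold with little spread, from 98 ± 6.17 to 118.5 ± 3.51 CPM. Lss, which closes the squalene ring to lanosterol, rose 1.4-fold with overlapping groups (edgeR adjusted p = 0.0199), and did not pass without wild type replicate 1 (adjusted p = 0.0521) or EoE33 replicate 1 (adjusted p = 0.0523). Fdft1, which makes squalene, had a log2 fold change of 0.084 with an interval from -0.22 to 0.39. It shares 774 exon bases with Ctsb on the opposite strand, a cathepsin gene at 467.9 CPM in wild type, and the use of strand in the counting is not given in the sources used here.

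Among the sterol steps, 2 genes fell. Tm7sf2, a sterol C14 reductase gene, was at 27.3, 26.7, 28 and 21.5 CPM in wild type and at 16.4, 11.4, 12.3 and 14.6 CPM in EoE33. Each EoE33 library was below each wild type library (1.89-fold lower, log2 fold change -0.92, SE 0.13, edgeR adjusted p = 0.000265). Tm7sf2 shares 532 exon bases on the same strand with Vps51, whose own log2 fold change was -0.17 and did not pass. Dhcr7, the reductase of the last step to cholesterol in the Kandutsch-Russell branch, was at 53.8, 59.1, 55.2 and 49.4 CPM in wild type and at 43.2, 37, 39.5 and 41.3 CPM in EoE33. Its groups were also apart (1.35-fold lower, log2 fold change -0.43, edgeR adjusted p = 0.000845). Ebp, the sterol isomerase gene, had a log2 fold change of -0.15 with an interval from -0.39 to 0.091, and passed as lower only without wild type replicate 4 (edgeR adjusted p = 0.0331), or, in an alternative chosen after seeing the data, without wild type replicates 1 and 4 together (0.0418).

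The 17 enzymes from mevalonate to cholesterol varied together among mice of a group. Wild type replicate 4 was the lowest wild type library in 17 of 17 and replicate 3 the highest in 15. Within EoE33, replicate 2 was the lowest in 16 and replicate 1 the highest in 14. Their summed level was 1363, 1425, 1582 and 1097 CPM in wild type and 2151, 1590, 1845 and 1862 CPM in EoE33, so the lowest EoE33 library lay just above the highest wild type library. Krt13 was at 32277, 35836, 42621 and 24149 CPM in wild type and at 22800, 10434, 14164 and 21827 CPM in EoE33. The same libraries were thus lowest and highest for Krt13 within each group, although between groups Krt13 was lower in EoE33 (log2 fold change -0.96, edgeR adjusted p = 0.0121). Of 8 suprabasal keratinocyte markers, Krt13 included, 6 fell, while 6 of 7 basal keratinocyte markers rose and Krt15 fell: the basal keratin gene Krt5 was 3.92-fold and Krt14 16.6-fold higher in EoE33, and the summed level of 7 basal keratinocyte markers was 3501 to 5044 CPM in wild type and 16150 to 19880 CPM in EoE33. The part of epithelial RNA content in the sterol results was not tested.

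**Figure D2:**
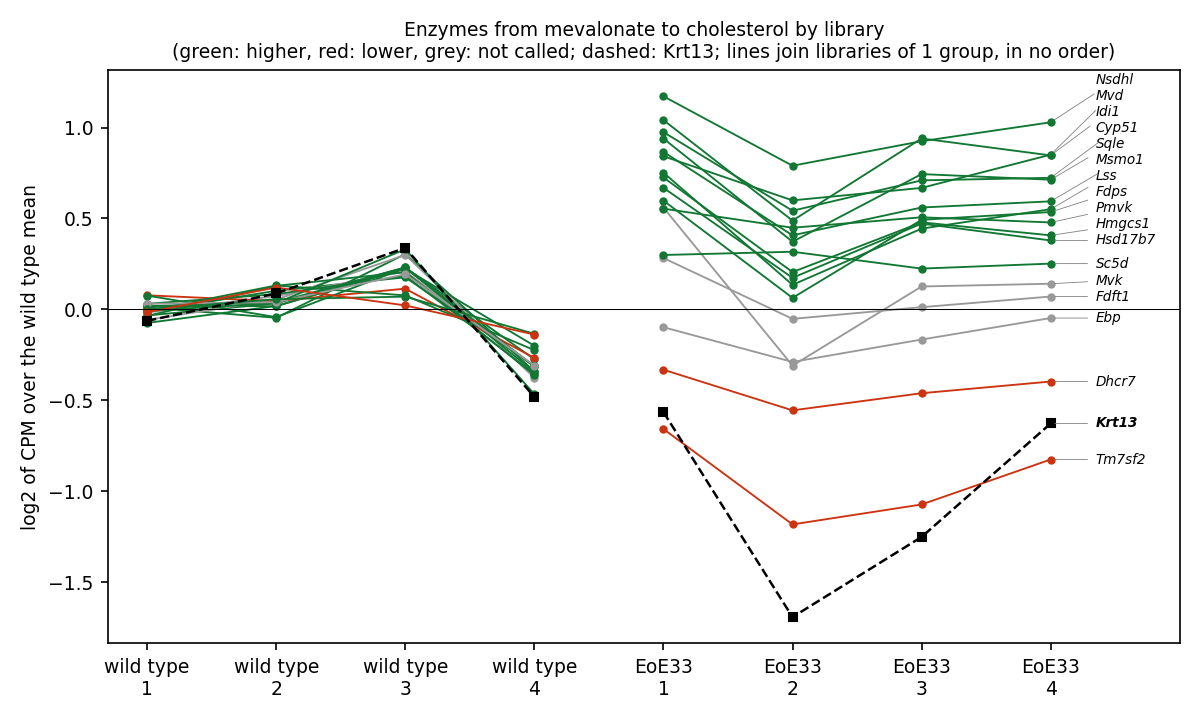
Level of each of the 17 enzymes from mevalonate to cholesterol in each library (x axis), as log2 of its CPM over the wild type mean (y axis), with Krt13 dashed; lines join the points of a gene within a group and carry no order. Wild type replicate 4 is the low library of its group for all 17 enzymes, EoE33 replicate 2 for 16, and Krt13 has the same low libraries while lying below 0 in EoE33.

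Of the regulators and the sterol carrier, 3 of 4 were higher in EoE33, the direction of most sterol enzymes. Srebf2, which encodes SREBP-2, was among the most even members, at 174.7, 179, 178.7 and 168 CPM in wild type and at 260.8, 234.8, 240.9 and 249.8 CPM in EoE33. The groups were far apart relative to their spread (1.41-fold, log2 fold change 0.49, SE 0.06, edgeR adjusted p = 9.42e-05). Insig1, whose protein retains the SREBP escort SCAP in the endoplasmic reticulum and which is itself an SREBP target, was at 43.6, 41.7, 45.1 and 43.5 CPM in wild type and at 67.1, 56.4, 61.5 and 55.6 CPM in EoE33 (1.38-fold, edgeR adjusted p = 0.00043). Stard4, a carrier of cholesterol between membranes, was at 40.8, 45.1, 49 and 33.1 CPM in wild type and at 89.4, 85.2, 93.1 and 73.4 CPM in EoE33, with no overlap (2.03-fold, log2 fold change 1.02, SE 0.13, edgeR adjusted p = 0.000102). Srebf1, which encodes SREBP-1, the factor better known for fatty acid synthesis, was at 119, 89.2, 86 and 110.8 CPM in wild type and at 102.6, 79.2, 80.8 and 83.1 CPM in EoE33. Its groups overlapped and it did not pass (log2 fold change -0.23, interval -0.51 to 0.057). The call was gained without EoE33 replicate 1 (edgeR adjusted p = 0.0479) and with the replicate number as a block (0.0426). Per length of annotated exons, Srebf2 made up 57.7% ± 4.43 of the summed Srebf1 and Srebf2 level in wild type and, without overlap, 69.2% ± 1.73 (SD, n = 4) in EoE33. Wild type replicates 1 and 4, highest in adipocyte markers, had shares of 53.5% and 54.3%, against 61.1% and 62% in replicates 2 and 3. The part of fat content in this shift was not tested.

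Promoters of the members were examined for the pentamer CCAAT and for the sterol regulatory element. RefSeq windows from 250 bases before to 50 bases after the transcription start (GRCm38.p6) were at hand for 27 members; Fdps, Fdft1, Sqle, Stard4, Scd1, Scd2 and Fads1 had none. The pentamer CCAAT, read on both strands, was present in 23 of these 27 genes (85.2%), against 41.9% of the 12069 tested genes with a window. It was present in all 5 mevalonate genes, all 9 genes from squalene on and all 3 regulators with a window, in 5 of 6 genes of acetyl-CoA and fatty acid synthesis, and in 1 of 4 elongation and desaturation genes. By direction, it was present in 12 of 13 members that rose, 5 of 7 that fell and 6 of 7 others. Those others were tested and not called, except Scd3, which was not tested and lacked the pentamer. Scd3 is also counted among the 27. The sterol regulatory element written as TCACNCCAC was found in Hmgcs1 alone, against 1.48% of tested genes with a window; the same letters preceded by A were found in no member and in 0.27% of all genes. These matches are letters in a window and were not measured as binding sites. Only exact letters were counted, so a promoter without a match may still hold a near match, such as atcaccccat in Srebf2. The stretches upstream of the start are shown for the member with the smallest p in each role among those with a window and for Hmgcs1, which holds the sterol element, leaving out bases that GENCODE places in an exon of the gene, with the pentamer (read as ATTGG where it lies on the opposite strand) and the sterol element in capitals. They are chr13:119690151-119690350 (plus strand) for Hmgcs1, chr8:122443423-122443622 (minus) for Mvd, chrX:72918321-72918520 (plus) for Nsdhl, chr15:82147069-82147180 (plus) for Srebf2 and chr5:114165318-114165508 (plus) for Acacb, the last lying inside the longer GENCODE gene. For elongation and desaturation this would be Fads2, whose stretch lies wholly in a GENCODE exon and is not shown.
Hmgcs1: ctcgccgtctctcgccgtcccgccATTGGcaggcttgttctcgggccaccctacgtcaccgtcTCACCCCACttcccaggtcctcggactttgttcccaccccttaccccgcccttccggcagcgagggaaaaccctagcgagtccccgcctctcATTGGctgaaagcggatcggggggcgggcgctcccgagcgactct
Mvd: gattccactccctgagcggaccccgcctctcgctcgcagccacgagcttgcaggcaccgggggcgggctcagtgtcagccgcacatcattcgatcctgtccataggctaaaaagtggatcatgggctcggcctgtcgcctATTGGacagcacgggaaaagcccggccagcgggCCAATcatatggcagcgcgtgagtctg
Nsdhl: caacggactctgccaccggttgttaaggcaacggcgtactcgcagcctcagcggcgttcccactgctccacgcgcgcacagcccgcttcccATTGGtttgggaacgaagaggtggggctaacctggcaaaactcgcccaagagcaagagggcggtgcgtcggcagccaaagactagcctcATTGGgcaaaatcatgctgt
Srebf2: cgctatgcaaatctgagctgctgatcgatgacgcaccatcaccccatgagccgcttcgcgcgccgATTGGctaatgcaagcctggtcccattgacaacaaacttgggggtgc
Acacb: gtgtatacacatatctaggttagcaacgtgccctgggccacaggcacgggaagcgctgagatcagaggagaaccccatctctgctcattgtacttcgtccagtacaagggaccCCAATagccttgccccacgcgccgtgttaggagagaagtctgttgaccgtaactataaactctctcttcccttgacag
Hmgcs1 carries its sterol element between 2 ATTGG pentamers, while the stretches of Mvd and Nsdhl carry pairs of the pentamer and no match to the sterol element. Srebf2 and Acacb, which moved in opposite directions, each carry a single copy of the pentamer in the bases shown.

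Desaturases held the largest rises. Scd2, a stearoyl-CoA desaturase that makes monounsaturated fatty acids (chromosome 19, 44293674 to 44306864, GRCm38), was at 134.6, 142.7, 157.1 and 121.2 CPM in wild type and at 574.9, 448.8, 497.2 and 460.9 CPM in EoE33. The lowest EoE33 library was well above the highest wild type library (3.57-fold, log2 fold change 1.83, SE 0.11, edgeR adjusted p = 1.75e-06). Fads2, the delta-6 desaturase of polyunsaturated fatty acids (chromosome 19, 10062765 to 10101746), was at 19.7, 15.1, 21.8 and 18.8 CPM in wild type and at 60.2, 80.5, 68.4 and 54.7 CPM in EoE33. It rose 3.5-fold without overlap (log2 fold change 1.81, SE 0.14, edgeR adjusted p = 8.58e-06). Fads1, the delta-5 desaturase, lies 81.1 kb from Fads2 and was at 36.2, 28.3, 36.4 and 35.8 CPM in wild type and at 64.5, 86.7, 70.4 and 66.6 CPM in EoE33. It rose 2.11-fold (log2 fold change 1.07, SE 0.12, edgeR adjusted p = 5.04e-05). For both Fads1 and Fads2, EoE33 replicate 2 was the highest library, the reverse of its place among the sterol enzymes.

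The elongases of the list fell. Elovl6, which lengthens palmitate to stearate (chromosome 3, 129532355 to 129638495), was at 204.4, 192.2, 181.4 and 182.3 CPM in wild type and at 78.3, 43.2, 57.7 and 50.3 CPM in EoE33. The groups did not overlap; the wild type libraries were close to each other and the EoE33 libraries spread 1.81-fold (3.31-fold lower, log2 fold change -1.73, SE 0.17, edgeR adjusted p = 2.7e-05). Elovl5, the elongase of polyunsaturated fatty acids that acts between the Fads2 and Fads1 steps, was at 71, 67.2, 65.7 and 74.9 CPM in wild type and at 56.1, 41, 48.4 and 54.7 CPM in EoE33. It was 1.39-fold lower (edgeR adjusted p = 0.00273), opposite in direction to both desaturases.

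**Figure D3:**
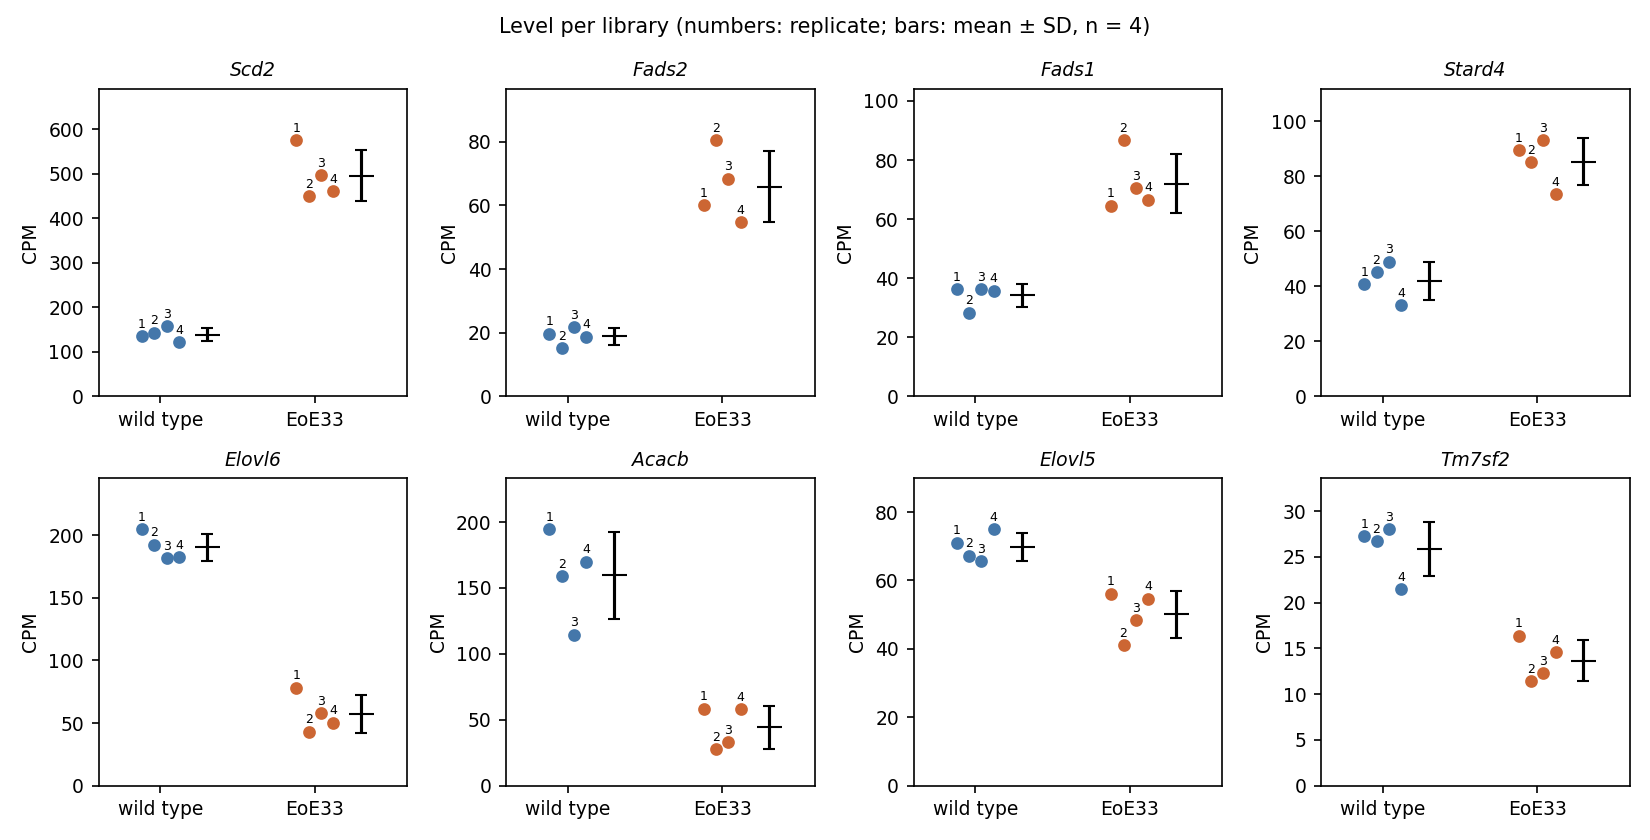
CPM of 8 members in each library (y axis, from 0), wild type and EoE33, with mean and SD (n = 4 each) beside the points. In none of the 8 do the groups overlap: Scd2, Fads2, Fads1 and Stard4 are higher and Elovl6, Acacb, Elovl5 and Tm7sf2 lower in EoE33.

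In the supply of acetyl-CoA and NADPH and in fatty acid synthesis no gene rose, 3 of 6 fell and 3 did not pass. Acacb, the acetyl-CoA carboxylase at the outer mitochondrial membrane, whose malonyl-CoA is known to restrain fatty acid oxidation, was at 194.4, 159.1, 114.7 and 169.9 CPM in wild type and at 58.5, 27.6, 33 and 58.1 CPM in EoE33. It had the largest fall of the set without overlap (3.6-fold lower, log2 fold change -1.85, SE 0.28, edgeR adjusted p = 0.000673). Acaca, the cytosolic carboxylase, was at 232.9, 137.2, 118.6 and 187 CPM in wild type and at 138.7, 83, 87.4 and 84.3 CPM in EoE33, with EoE33 replicate 1 above 2 wild type libraries. It was 1.72-fold lower (edgeR adjusted p = 0.024), and 34% of the 150-base windows of its longest transcript also occur in the gene model Gm5182. Acss2, which makes acetyl-CoA from acetate, was 1.5-fold lower with overlapping groups (edgeR adjusted p = 0.0353). Neither call was firm. Without the filter on low counts, both were lost with all libraries kept (edgeR adjusted p = 0.0846 for Acaca and 0.112 for Acss2). Acaca was also lost without any 1 of wild type replicates 1 and 4 and EoE33 replicates 2, 3 and 4 (adjusted p = 0.0563 to 0.0665) and Acss2 without wild type replicate 1 or 4 or EoE33 replicate 2 or 3 (0.0582 to 0.0959). Acly, which makes acetyl-CoA from citrate, and Me1, the malic enzyme that supplies NADPH, had log2 fold changes of -0.089 (interval -0.4 to 0.23) and 0.025 (interval -0.4 to 0.45).

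Fasn and Scd1 spread the most among the wild type libraries of all 33 tested members. Fasn, the fatty acid synthase gene, was at 1354, 586.7, 399.6 and 1092 CPM in wild type and at 705.9, 348.7, 323.2 and 388.7 CPM in EoE33. Scd1 was at 1343, 416.8, 328.8 and 1177 CPM in wild type and at 804.5, 346.4, 222.1 and 348.9 CPM in EoE33. The wild type libraries spread 3.39-fold for Fasn and 4.08-fold for Scd1, the EoE33 libraries lay inside or below that range, and neither passed (log2 fold changes -0.96 with interval -1.94 to 0.028, and -0.92 with interval -2.27 to 0.42). The call of Fasn was gained without wild type replicate 3 (edgeR adjusted p = 0.0248) or EoE33 replicate 1 (0.034).

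Adipocyte markers were high in the same libraries. The summed level of the 9 markers was 1626, 726, 351 and 1652 CPM in wild type and 409, 262, 163 and 300 CPM in EoE33. All 9 markers fell, and none was at 0: Adipoq, the adiponectin gene, was at 153.9, 60, 21.3 and 169.8 CPM in wild type and at 38.8, 22.8, 13.8 and 26.2 CPM in EoE33, and Plin1, of the lipid droplet coat, at 164.9, 56.2, 22.6 and 190.3 CPM and at 33.2, 14, 9.58 and 25.1 CPM. Wild type replicates 1 and 4 were thus high and wild type replicate 3 low in adipocyte markers, in Fasn and in Scd1. With the log2 of this summed level as a further term, an alternative chosen after seeing the data, the log2 fold change of Fasn became 0.47 (edgeR adjusted p = 0.141) and that of Scd1 0.94 (adjusted p = 0.0439), both opposite in sign to the values without the term. In the same fit Acaca had a log2 fold change of -0.052 (adjusted p = 0.869), and Acss2 and Elovl5 also lost their calls (0.606 and 0.117). Acacb had a log2 fold change of -1.2 with the term (edgeR adjusted p = 0.0164), against -1.85 without it, and Elovl6 one of -1.57 (0.00168), against -1.73. In wild type replicate 3, the lowest of its group in adipocyte markers, Acacb was at its wild type minimum of 114.7 CPM and Elovl6 at its minimum of 181.4 CPM. The marker level itself differs between genotypes, so that fit cannot fully tell it apart from genotype, and the number of genes called fell to 3273 higher and 3283 lower over all genes.

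**Figure D4:**
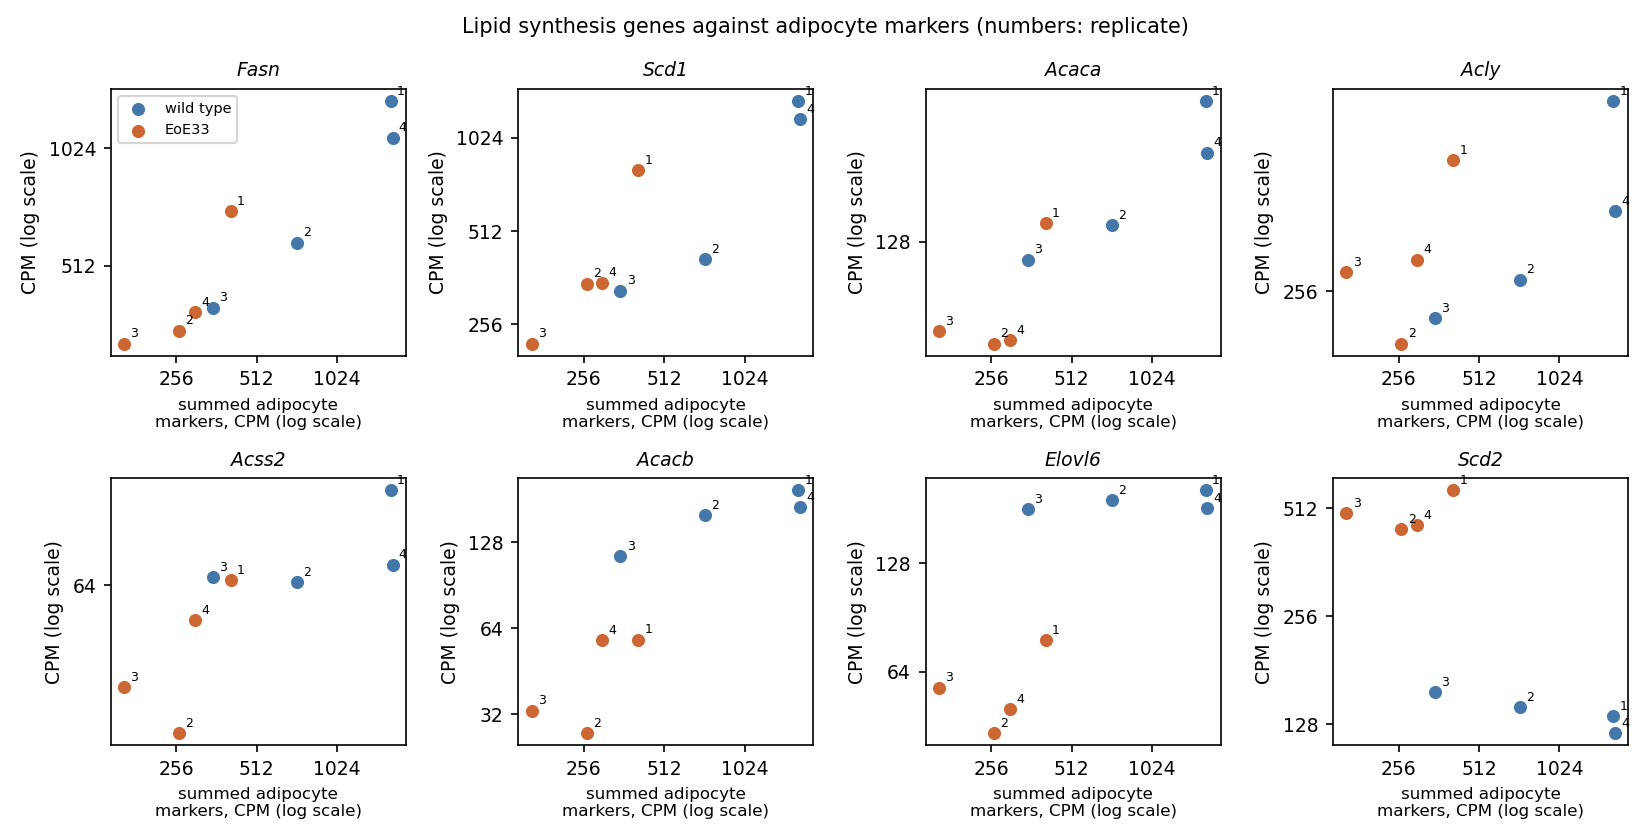
CPM of 8 members (y axis, log scale) against the summed CPM of 9 adipocyte markers (x axis, log scale) in each library, wild type and EoE33, numbered by replicate. Fasn and Scd1 are high where the markers are high in both groups (wild type replicates 1 and 4, EoE33 replicate 1), while Elovl6 lies between 181.4 and 204.4 CPM in wild type and Scd2 is at 448.8 CPM or above in EoE33 alone.

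With the adipocyte term, 10 members were higher, Scd1 among them, and 4 lower. The rises of Mvd, Idi1, Nsdhl, Insig1, Srebf2, Stard4, Scd2, Fads1 and Fads2 and the falls of Tm7sf2, Dhcr7, Acacb and Elovl6 held their call and direction in all 20 refits that were run, including this one. Hmgcs1, Pmvk, Fdps, Sqle, Lss, Cyp51, Msmo1, Hsd17b7 and Sc5d kept a positive log2 fold change but lost their calls with that term (edgeR adjusted p = 0.0654 to 0.461). Without wild type replicates 1 and 4, 13 members were higher and 6 lower.

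The shares of paralogs shifted. Per length of annotated exons, Scd2 made up 8.24%, 23.5%, 30% and 8.44% of the summed Scd1 and Scd2 level in wild type and 39%, 53.7%, 66.7% and 54.2% in EoE33. Wild type replicates 1 and 4, high in adipocyte markers, had the lowest shares, and the groups did not overlap (17.5% ± 10.9 and 53.4% ± 11.3, SD, n = 4 each). Acacb made up 63% ± 3.22 of the summed Acaca and Acacb level in wild type and, also without overlap, 43.7% ± 7.85 (SD, n = 4) in EoE33. The exon length used for Acaca is the union of all its annotated exons, 17074 bases, which lowers its level per length in both groups alike. In the order of group mean levels per length over the 34 members, Scd1 was the highest in wild type and Me1 in EoE33, but Me1 was above Scd1 in wild type replicates 2 and 3 and below it in EoE33 replicate 1. In the same order Scd2 moved from place 10 to 2, Fads2 from 33 to 18 and Elovl6 from 8 to 28. Scd1 and Scd2 counts were little exposed to shared reads: 0.769% of the 150-base windows of Scd1 occur in another gene, Scd3, and none of those of Scd2 do.

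**Figure D5:**
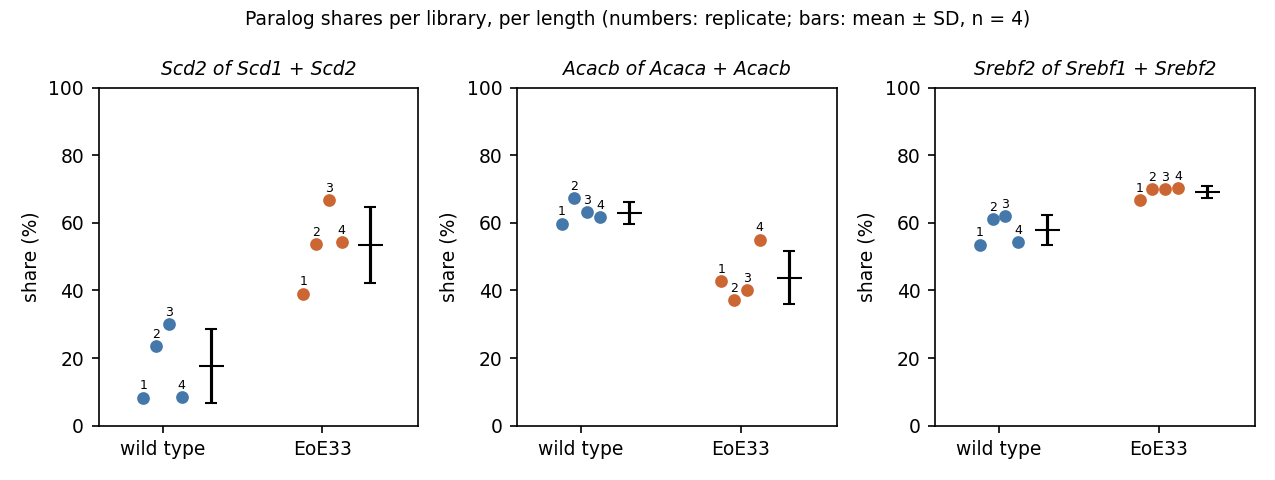
Share of 1 paralog in the summed level of a pair, per length of annotated exons, in each library (y axis, percent, from 0 to 100), with mean and SD (n = 4 each). The Scd2 and Srebf2 shares are higher and the Acacb share lower in every EoE33 library than in any wild type library.

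Other genes of the same pathways came from 9 lists, whose counts are to be read against the 31.3% of all tested genes that were higher and the 32.1% that were lower. Of the SREBP processing and sterol-dependent degradation genes, 3 of 9 rose and 3 fell (33.3% each), near those shares. Rnf145, a sterol-responsive ubiquitin ligase, rose 2.11-fold, Scap, the SREBP escort, rose 1.44-fold, and Rnf139, another ubiquitin ligase of the endoplasmic reticulum, was 1.33-fold lower (edgeR adjusted p = 1.93e-05, 0.000199 and 0.000161). Of 11 other sterol and isoprenoid genes, 4 rose and 5 fell (36.4% and 45.5%); Nus1, a subunit of the dolichol-forming prenyltransferase, rose 2.13-fold, and Acat1, the mitochondrial thiolase, and Coq2, of coenzyme Q synthesis, were 1.55-fold and 1.54-fold lower. Of 13 LXR genes and genes of cholesterol export and esterification, 7 rose and 2 fell (53.8% and 15.4%, median log2 fold change 0.5). Cyp7b1, an oxysterol hydroxylase, was 16.8-fold higher, at 27.1 ± 9.17 CPM against 1.61 ± 0.14 CPM in wild type (SD, n = 4; edgeR adjusted p = 3.17e-06). Lpcat3, which puts polyunsaturated fatty acids into phospholipids, rose 1.49-fold, and Mylip, a ubiquitin ligase induced by LXR, rose 1.42-fold. The 2 that fell were the LXR gene Nr1h3 and Cyp27a1 (1.87-fold and 1.66-fold lower). The cholesterol exporter genes Abca1 and Abcg1 did not pass (log2 fold changes -0.37 and -0.46). Of 6 genes for uptake and lysosomal handling of cholesterol, 3 rose (50%), namely Scarb1, Npc2 and Npc1 (1.61-fold, 1.28-fold and 1.15-fold).

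Among the fatty acid lists, more genes fell than rose in 3 of 4. Of 22 tested genes of other fatty acid synthesis and elongation, 3 rose and 11 fell (13.6% and 50%, median log2 fold change -0.49). Fads6, a desaturase-like gene, was 11.1-fold lower, Mlycd, which destroys malonyl-CoA, 2.37-fold lower, and Mlxipl, which encodes the carbohydrate-sensing lipogenic factor ChREBP, 3.19-fold lower. Of 17 fatty acid oxidation genes, 16 fell and none rose (94.1% lower, median log2 fold change -0.77); Ppara, a nuclear receptor that drives oxidation, was 6.66-fold lower, Hadh 2.67-fold and the carnitine carrier gene Slc25a20 1.96-fold. Skeletal muscle markers, 13 of 13 of which fell with a median log2 fold change of -2.01, moved with these genes and with Acacb, and their part in those results was not tested. Of 17 tested triglyceride and lipid droplet genes, 3 rose and 9 fell (17.6% and 52.9%), with Lpin1, Agpat3 and Gpam 3.51-fold, 1.69-fold and 2.45-fold lower. Of 14 fatty acid uptake and activation genes, 5 rose and 5 fell (35.7% each, median log2 fold change -0.73), near the shares over all genes. Slc27a3 rose 6.62-fold, and the acyl-CoA synthetase genes Acsl5 and Acsl3 rose 1.78-fold and 1.87-fold. Among the 5 that fell were Cd36, Acsl1 and Slc27a1 (3.28-fold, 2.89-fold and 2.29-fold lower). All 9 adipocyte markers fell as well. Like their sum, Cd36 (305.9, 186.6, 144.5 and 329.9 CPM), Acsl1, Slc27a1, Pnpla2 (253.4, 136.3, 98.7 and 250.8 CPM) and Lipe were highest in wild type replicates 1 and 4. The falling genes Fabp3, Lpin3, Dgat2, Plin3 and Plin5 did not have this order. The part of fat content in these lists was not tested. Of 5 NADPH supply genes, 3 rose (60%) and none fell, with Idh1, Me2 and Pgd 2.05-fold, 1.48-fold and 1.38-fold higher (edgeR adjusted p = 1.09e-05, 0.0007 and 0.00521).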

How the data were processed

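The authors deposited raw counts per gene for 8 libraries. Per the submitters' processing notes, GRCm38 was the build, and Trimmomatic 0.36, Subread 1.5.2 with featureCounts, and STAR 2.5.2b were used, in roles not stated there. Nothing used here gives the annotation release, the strand setting or how multiply mapped reads were counted. Columns were assigned to samples by the spreadsheet letter in each sample's description. GENCODE M21 gave symbols for 49056 identifiers and none for 259.

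Genes were filtered with filterByExpr, scaled by TMM and tested by quasi-likelihood in edgeR 4.0.16 under R 4.3.3 (glmQLFit, robust = TRUE; glmQLFTest). Genotype was the only term, with Benjamini-Hochberg adjustment over all 16760 tested genes. Standard errors were derived from the F statistic. The procedure was tested on simulated data in which few of 16161 genes changed. It called 34% of genes raised 1.5-fold, 82% of those raised 2-fold and 92% of those raised 4-fold (50 genes each). Of 163 calls, 6.13% were false. Far more genes were called in the real data, so these shares do not give the power there. Levels per length are CPM per 1000 bases of merged exons. All 34 members were named, and in each further list the 3 genes with the smallest p and a mean of at least 1 CPM. A few further genes of these lists were named after their values were seen. The members and lists were chosen with earlier results of these data known. Alternatives used DESeq2 1.42.0, limma 3.58.1, other scalings and filters, stricter thresholds, a replicate block and left-out libraries. The adipocyte term and the omission of wild type replicates 1 and 4 were chosen after seeing the data. RefSeq promoter windows came from GRCm38.p6. Protein sequences were not used here.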

Additional observations from a re-analysis of the deposited data

Results flagged for a closer look

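Within-group values of the 33 tested members were examined for a library far from the other 3, in 66 groups of 4. In 4 of them the gap to the nearest library took up 0.833 to 0.923 of the range, above the 95% critical value of Dixon; chance flags about 1 group in 20. EoE33 replicate 1 was the high library for Srebf1 (102.6 CPM, others 79.2 to 83.1) and for Acaca (138.7 CPM, others 83 to 87.4); the summed adipocyte markers were also highest there within EoE33, at 409 CPM. Wild type replicate 1 was high for Acss2, at 94.9 CPM against 64.8 to 69.7. Wild type replicate 2 was low for Fads1, at 28.3 CPM against 35.8 to 36.4, and was the lowest wild type library for Fads2 as well, at 15.1 CPM.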

How the results depend on the processing

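Counts of members higher and lower (18 and 7) held within 1.5 times under each other scaling, tool and filter run, at an adjusted p of 0.01, and without wild type replicates 1 and 3 or 1 and 4; without a low-count filter 5 members were lower, Acaca and Acss2 being lost. They became 10 and 4 with the adipocyte term, where all genes gave 3273 and 3283, and 4 and 2 when a change of 1 or more on the log2 scale was required, where all genes gave 2057 and 2496. Leaving out 1 library gave 16 to 18 members higher and 5 to 9 lower, and 4825 to 5160 genes higher and 4880 to 5333 lower. Replicate numbers do not pair the mice: same-numbered libraries correlated between -0.136 and 0.104. With the replicate block, 18 members were higher and 10 lower, adding Fasn, Scd1 and Srebf1, and all genes gave 4936 and 5120. Signs turned in 6 members, none called without these changes: Fdft1 (-0.025 without wild type replicate 4, -0.14 with the adipocyte term, -0.11 without wild type replicates 1 and 4), Acly (-0.18 to 0.029 leaving out 1 library, 0.029 without wild type replicate 1, 0.28 with the term, 0.1 without wild type replicates 1 and 4), Srebf1, Fasn and Scd1 (0.15, 0.47 and 0.94 with the term; Scd1 0.2 without wild type replicates 1 and 4) and Me1 (-0.0027 by limma-voom, -0.002 with the block, -0.064 without wild type replicate 4, -0.11 and -0.053 without EoE33 replicates 1 and 4, -0.032 without wild type replicates 1 and 4). The cause was not tested. Among members, depth left Scd3 untested.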

Other observations

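Chosen after their values were seen, 2 genes of the pathway lists varied widely among EoE33 mice. Elovl4, the elongase of very long-chain fatty acids of barrier lipids, was at 318.3, 331.3, 354 and 258.7 CPM in wild type and at 220.5, 12, 74.8 and 210.3 CPM in EoE33, and did not pass (edgeR adjusted p = 0.16). Abcg1, a cholesterol exporter, was at 33, 36.9, 40.7 and 31.9 CPM in wild type and at 41.6, 8.49, 15.9 and 37.6 CPM in EoE33. Both had the order of EoE33 libraries of the cornified layer gene Lor (1737, 70, 332 and 1323 CPM) and of the transglutaminase gene Tgm3 (467.5, 18.9, 126.9 and 312.8 CPM), with replicate 2 lowest. The sterol enzymes were also lowest in replicate 2, but over a narrower range: their summed level there was 1590 CPM, against 1845 to 2151 CPM in the other EoE33 libraries.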
